A study of Mus musculus with 15 samples.

Results

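Flavin-containing monooxygenases are enzymes of the endoplasmic reticulum that hold FAD, take electrons from NADPH and add an oxygen atom to nitrogen or sulfur atoms of drugs and natural metabolites. Unlike cytochromes P450 they need no separate reductase. In mouse liver they are known for levels that differ between the sexes and respond to testosterone. *Fmo1*, *Fmo2*, *Fmo4* and *Fmo5* were chosen by symbol, which gave 4 rows of the 55573 in the count table, and all 4 passed the filter on low counts. FMO1 oxygenates a wide range of amines and thioethers and also makes taurine from hypotaurine. FMO2 is best known from lung, FMO4 is a poorly characterised member of low abundance, and FMO5 is a liver form that inserts oxygen next to carbonyl groups. In WT livers, *Fmo1*, *Fmo2* and *Fmo4* were higher in females than in males and *Fmo5* was not past the test. In ESR1KO females, *Fmo1* and *Fmo2* were lower than in WT females.

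Liver RNA of 15 mice aged 8 weeks was sequenced, each mouse giving 1 library. The WT groups held 3 females and 3 males, and the ESR1KO groups 5 females and 4 males. ESR1KO mice were homozygous for an *Esr1* exon deletion present in every tissue (strain B6N(Cg)-Esr1tm4.2Ksk/J), were bred from heterozygous parents and have raised testosterone in both sexes, so an effect of the receptor inside hepatocytes and an effect of altered hormones cannot be told apart. WT mice carry the same strain name with wild type *Esr1*. Libraries held between 27799061 and 78624766 counts. *Esr1* RNA ranged from 25.0 to 88.2 CPM (counts scaled to library size, with TMM factors) in WT livers and from 8.22 to 19.7 CPM in ESR1KO livers, and the count covers all exons. None of the 6 hepatocyte markers was at 0 in any group, and their summed level was 98453 to 109379 CPM in WT females, 73097 to 74281 in WT males, 80849 to 103356 in ESR1KO females and 85344 to 93312 in ESR1KO males. The sums weigh abundant markers most. The median log2 fold change of the 6 markers was -0.15 for WT females against WT males, opposite in sign to the sums. Against WT males it was also opposite for ESR1KO males (-0.13) and ESR1KO females (-0.29). It was -0.16 between female genotypes and -0.11 between ESR1KO sexes, where the sums overlapped. The share of counts from mitochondrial genes was 4.33% to 7.40% in 13 libraries, 11.2% in ESR1KO female 1 and 1.97% in ESR1KO female 4. In whole liver, fewer cells of a type and less RNA per cell cannot be told apart.

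*Fmo4* (ENSMUSG00000026692; chr1:162793188-162813972), *Fmo1* (ENSMUSG00000040181; chr1:162829561-162866610) and *Fmo2* (ENSMUSG00000040170; chr1:162874317-162898726) lie in this order on the minus strand of chromosome 1 of GRCm38. *Fmo5* (ENSMUSG00000028088; chr3:97628804-97655282) stands alone on the plus strand of chromosome 3. All 4 are protein-coding, and no other gene of GENCODE M21 overlapped any of them. *Fmo6* on chromosome 1 had 3 counts over the 15 libraries, and *Fmo9* on the same chromosome had 0, which allows up to 0.00413 CPM over all libraries. Family members resemble each other in sequence, and how reads that map to several genes were counted is not known, so reads shared between copies leave some uncertainty in each level.

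Start-site sequences from RefSeq (GRCm38.p6) were matched for 3 of the 4 members. None was matched for *Fmo1*, which was also higher in WT females. The sequences are shown since *Fmo2* and *Fmo4* were higher in WT females while *Fmo5* did not pass. A link between sequence and sex bias was not tested. A window runs from 250 bases before to 50 after a start. The GC content was 41.3% at the upstream start of *Fmo2*, 47.7% at its downstream start, 42.7% at *Fmo4* and 56.0% at *Fmo5*, beside a median of 52.7% over 32851 windows. Exons of the gene annotated in GENCODE M21 covered 18 of the 300 bases of the upstream *Fmo2* window and 277 of the downstream one. They covered 125 bases at *Fmo4* and 265 at *Fmo5*, so the windows differ in how much exon they hold. The *Fmo2* bases printed (chr1:162898727-162899008, minus strand, written 5′ to 3′) precede every exon of that gene in GENCODE M21, to which their label refers. They number 282, and the RefSeq start lies 250 bases into the window, so the last printed bases lie after that start. The *Fmo4* bases (chr1:162812654-162812799, minus strand) precede only the first exonic base of its window. They lie inside the annotated span of *Fmo4*, which reaches chr1:162813972, so its label refers to the window alone. Both stretches were as follows.
Fmo2 upstream: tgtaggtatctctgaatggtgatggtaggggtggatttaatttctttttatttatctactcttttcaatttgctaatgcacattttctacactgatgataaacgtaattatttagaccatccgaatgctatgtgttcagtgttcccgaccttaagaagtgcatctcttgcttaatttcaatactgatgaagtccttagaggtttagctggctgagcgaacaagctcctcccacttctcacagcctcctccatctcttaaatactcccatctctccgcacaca
Fmo4 upstream: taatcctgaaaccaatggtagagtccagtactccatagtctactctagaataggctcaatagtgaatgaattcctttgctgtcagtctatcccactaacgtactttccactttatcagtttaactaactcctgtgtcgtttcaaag

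Both strands of the windows were searched for GTTAAT (part of the HNF1 site), AGGTCA (part of a nuclear receptor site) and TTCNNNGAA (the STAT5 core), which occur in 7.1%, 16.3% and 8.3% of all windows. Whole HNF1 and nuclear receptor sites were not searched for. No match lay in the *Fmo5* window or in the upstream *Fmo2* window, and GTTAAT matched in none of the 4 windows. The downstream *Fmo2* window held 1 match each of the other 2 motifs, and the *Fmo4* window held 1 match of AGGTCA, read on the opposite strand as TGACCT. The 30 bases around each match are given with the match in capitals, at chr1:162898485-162898514, chr1:162898462-162898491 and chr1:162812607-162812636 in the order printed, all on the minus strand. Each match lay inside the annotated span of its gene, and a match describes letters and not binding. The lines labelled nuclear receptor motif mark AGGTCA or TGACCT alone.
Fmo2 nuclear receptor motif: cgtttacaatgaAGGTCAtatgaccagaca
Fmo2 STAT5 core: ccagacaagtTTCTCTGAAggggaggaagg
Fmo4 nuclear receptor motif: tctgacaacttcTGACCTtcatccagaaat

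Sex bias in wild type livers was examined first. Differences were tested with edgeR's quasi-likelihood F test over 17655 genes with Benjamini-Hochberg adjustment, and a gene passed at an adjusted p under 0.05. Of the 4 members, 3 passed between WT females and WT males, all higher in females, beside 4.87% of all genes tested in either direction. The members were picked with earlier results of these data known, so their count is a description.

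*Fmo1* was at 275, 274 and 269 CPM in WT females 1 to 3 and at 133, 135 and 124 CPM in WT males 1 to 3. The groups were far apart, and the WT females hardly differed from one another. Relative to males, the log2 difference was 1.06 ± 0.118 (SE; adjusted p in edgeR, 1.57e-05), or 2.09-fold. *Fmo2* was at 65.8, 64.7 and 52.1 CPM in WT females and at 9.21, 20.1 and 12.1 CPM in WT males. Every female exceeded every male, and the males spread widely around their low mean. The log2 fold change was 2.14 ± 0.249 (SE; adjusted p in edgeR, 2.51e-05), or 4.42-fold, the largest sex difference of the 4 members.

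*Fmo4* was the least abundant member by CPM and had the smallest of the female-biased differences. It was at 17.6, 13.97 and 12.3 CPM in WT females and at 9.19, 10.6 and 8.32 CPM in WT males. The groups did not overlap, with a log2 fold change of 0.65 ± 0.155 (SE; adjusted p in edgeR, 0.0202). This call was lost without WT female 1 (adjusted p = 0.122), WT male 1 (0.0820) or WT male 3 (0.0864). *Fmo5* was at 186, 299 and 321 CPM in WT females and at 376, 307 and 391 CPM in WT males. WT female 1 was lowest, and female 3 overlapped the males. Its log2 fold change was -0.42 with a 95% confidence interval from -0.91 to 0.08 (edgeR adjusted p = 0.398).

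**Figure D1:**
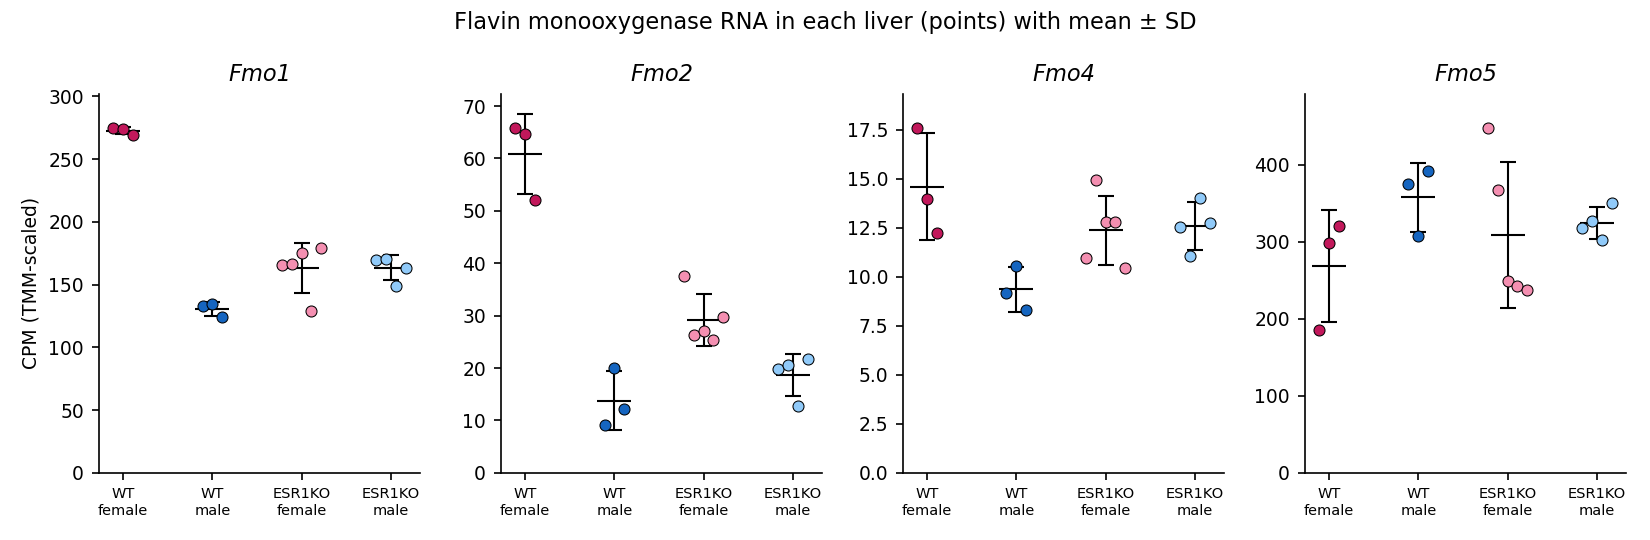
CPM (TMM-scaled, linear axis from 0) of *Fmo1*, *Fmo2*, *Fmo4* and *Fmo5* in each of the 15 livers (points), with the mean and SD of each group (lines). *Fmo1* and *Fmo2* were highest in the 3 WT females, while ESR1KO females lay between 129 and 179 CPM for *Fmo1* and between 25.3 and 37.6 CPM for *Fmo2*.

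ESR1KO livers were then compared with WT livers of the same sex, with the WT females and males above serving again as controls. In females, 2 of the 4 members passed, both lower in ESR1KO mice, beside 5.71% of all genes tested. *Fmo1* was at 166, 166, 175, 129 and 179 CPM in ESR1KO females 1 to 5. All were far below the WT females, and ESR1KO female 4 stood apart at the bottom. The mean was 163 ± 19.8 CPM (SD, n = 5), 59.8% of the WT female mean of 273 ± 3.01 (SD, n = 3). The log2 fold change was -0.74 ± 0.103 (SE; adjusted p in edgeR, 0.000310). Without ESR1KO females 1 and 4, whose mitochondrial shares stood apart, it was -0.66 (adjusted p = 0.000359).

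*Fmo2* was at 37.6, 26.3, 27.1, 25.3 and 29.8 CPM in ESR1KO females. No value reached that of any WT female. The mean of 29.2 ± 4.99 CPM (SD, n = 5) was 48.02% of the WT female mean of 60.9 ± 7.64 (SD, n = 3), with a log2 fold change of -1.06 ± 0.208 (SE; adjusted p in edgeR, 0.00642). Without ESR1KO females 1 and 4 it was -1.14 (adjusted p = 0.0158). *Fmo4* was at 10.96, 14.9, 12.8, 12.8 and 10.5 CPM in ESR1KO females, which overlapped the WT females. Its log2 fold change was -0.24 (95% confidence interval from -0.53 to 0.05, edgeR adjusted p = 0.307).

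*Fmo5* was at 448, 367, 249, 243 and 237 CPM in ESR1KO females. The spread of these mice exceeded that of every other group, and ESR1KO female 1, highest for *Fmo5*, also had the highest mitochondrial share, a link that was not tested. The log2 fold change against WT females was 0.20 (95% confidence interval from -0.25 to 0.65, edgeR adjusted p = 0.608), and it was -0.01 without WT female 1. Over these groups the order of *Fmo5* levels could not be set beyond the spread between mice.

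In males, none of the 4 members passed in edgeR or DESeq2, beside 1.42% of all genes tested in edgeR. At an unadjusted p under 0.05 there were 2 of the 4 members, beside 11.9% of all genes. *Fmo1* was at 169.7, 171, 149 and 163 CPM in ESR1KO males 1 to 4, each above every WT male. The log2 fold change was 0.32 with a 95% confidence interval from 0.09 to 0.56 (edgeR adjusted p = 0.201). *Fmo4* was at 12.5, 11.1, 14.02 and 12.7 CPM in ESR1KO males, also each above every WT male, with a log2 fold change of 0.43 (95% confidence interval from 0.12 to 0.74, edgeR adjusted p = 0.197). These are the members with an unadjusted p under 0.05, at 0.00974 for *Fmo1* and 0.00934 for *Fmo4*.

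*Fmo2* was at 19.7, 20.6, 12.8 and 21.7 CPM in ESR1KO males and overlapped the WT males, where male 2 was high. Its log2 fold change was 0.44 (95% confidence interval from -0.04 to 0.92, edgeR adjusted p = 0.483). *Fmo5* was at 317, 327, 302 and 351 CPM in ESR1KO males, within the range of the WT males apart from the lowest value. Its log2 fold change was -0.14 (95% confidence interval from -0.61 to 0.32, edgeR adjusted p = 0.867).

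Whether the genotype effect differed between the sexes was tested as an interaction, the effect in females minus that in males. It passed for 2 of the 4 members, beside 1.94% of all genes tested (3 at an unadjusted p under 0.05, beside 14.3% of all genes). For *Fmo1* it was -1.06 on the log2 scale (standard error 0.152, edgeR adjusted p = 0.000587), and for *Fmo2* -1.499 ± 0.311 (SE; adjusted p in edgeR, 0.0157). The *Fmo2* value missed the threshold without WT male 3 (adjusted p = 0.0557). For *Fmo4* the interaction was -0.67 (95% confidence interval from -1.10 to -0.25, edgeR adjusted p = 0.117), and for *Fmo5* it was 0.34 (95% confidence interval from -0.30 to 0.99, edgeR adjusted p = 0.624).

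**Figure D2:**
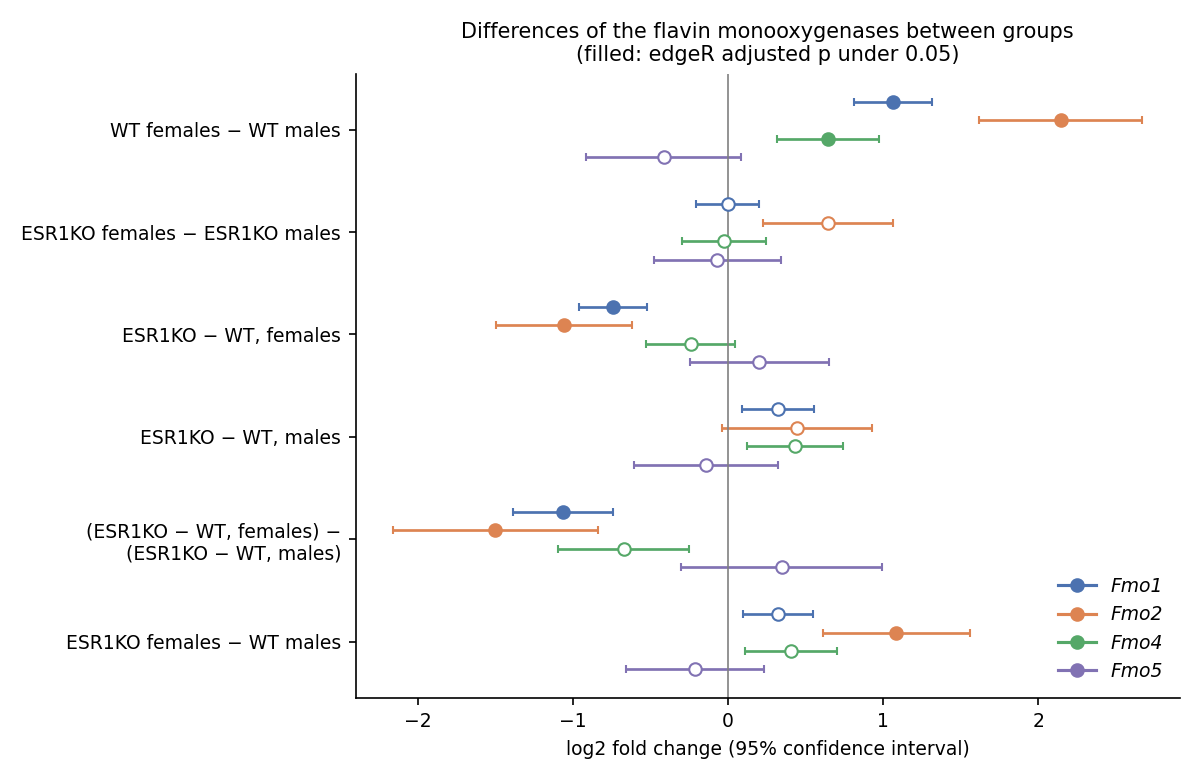
Log2 fold changes of the 4 members in the 6 comparisons with 95% confidence intervals from edgeR (horizontal axis, log2 scale); filled points passed at an adjusted p under 0.05. The WT sex difference of *Fmo1* was 1.06, and its interval in ESR1KO mice ran from -0.21 to 0.20.

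Between ESR1KO females and ESR1KO males, none of the 4 members passed in edgeR or DESeq2, beside 0.272% of all genes tested in edgeR. At an unadjusted p under 0.05 there was 1 of the 4 members, beside 17.5% of all genes. *Fmo1* averaged 163 CPM in both sexes, with a log2 fold change of 0.00 (95% confidence interval from -0.21 to 0.20, edgeR adjusted p = 0.995). This interval lies below the WT sex difference. For *Fmo4* the log2 fold change was -0.03 (95% confidence interval from -0.29 to 0.24, edgeR adjusted p = 0.929), and for *Fmo5* it was -0.07 (95% confidence interval from -0.48 to 0.34, edgeR adjusted p = 0.869). *Fmo2* differed in pattern, as all 5 ESR1KO females were above all 4 ESR1KO males, the nearest values being 25.3 and 21.7 CPM. Its log2 fold change of 0.64 (95% confidence interval from 0.22 to 1.07) did not pass after adjustment (edgeR adjusted p = 0.149; 0.0581 in DESeq2). With no filter on low counts it passed (adjusted p = 0.0379).

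ESR1KO females were set against WT males to ask whether they reached the male level, and 1 of the 4 members passed, beside 2.61% of all genes tested (3 at an unadjusted p under 0.05, beside 17.4% of all genes). *Fmo2* stayed higher in ESR1KO females, with a log2 fold change of 1.08 ± 0.224 (SE; adjusted p in edgeR, 0.0144) and no overlap between the groups. The call was lost without WT male 1 (adjusted p = 0.0884) or WT male 3 (0.0941). For *Fmo1* the log2 fold change was 0.32 (95% confidence interval from 0.10 to 0.54, edgeR adjusted p = 0.127), and it passed without ESR1KO female 4 (adjusted p = 0.0250). *Fmo4* was at 0.40 (edgeR adjusted p = 0.147) and *Fmo5* at -0.21 (edgeR adjusted p = 0.623). In order of mean CPM, *Fmo2* thus ran from WT males (13.8) through ESR1KO males (18.7) and ESR1KO females (29.2) to WT females (60.9), and the first 2 groups overlapped. *Fmo1* ran from WT males (131) to ESR1KO females and males (163 each) and WT females (273), where ESR1KO female 4 at 129 CPM lay within the WT males.

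Levels of different members were compared per length, as TPM over the union of each gene's exons. *Fmo5* had the highest mean of the 4 members, with 121 ± 30.97 TPM in WT females and 150.2 ± 18.3 in WT males (SD, n = 3 each), and *Fmo1* followed at 111 ± 3.602 and 49.3 ± 2.47. The ratio of *Fmo1* to *Fmo5* TPM ran from 0.755 to 1.33 in WT females, so their order was not set there, and from 0.286 to 0.395 in WT males. In ESR1KO mice it ran from 0.333 to 0.682 in females and from 0.419 to 0.481 in males. *Fmo2* was at 27.997 ± 4.05 and 5.91 ± 2.57 TPM and *Fmo4* at 10.2 ± 2.10 and 6.02 ± 0.812, in the same order of groups. In WT males the means of *Fmo2* and *Fmo4* differed by less than their spread, whereas in WT females *Fmo2* lay above *Fmo4* in each mouse.

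Summed over the 4 members, the level was 244 to 288 TPM in WT females, 199.9 to 228 in WT males, 178 to 233 in ESR1KO females and 192 to 219 in ESR1KO males. In TPM, all WT females were above all other mice. This order depends on the scaling: as CPM per kilobase the sums were 92.8 to 111.9 in WT females, 81.9 to 93.1 in WT males, 71.2 to 114.9 in ESR1KO females and 82.9 to 95.1 in ESR1KO males, so the groups overlapped and ESR1KO female 1 was highest. *Fmo1* made up 41.4% ± 4.87 of this sum in WT females (SD, n = 3), 23.4% ± 2.48 in WT males (SD, n = 3), 29.8% ± 5.64 in ESR1KO females (SD, n = 5) and 28.9% ± 1.23 in ESR1KO males (SD, n = 4). *Fmo5* made up 44.4% ± 8.06, 70.9% ± 4.24, 60.4% ± 6.52 and 63.6% ± 1.20 in the same order. These shares depend on which exons are counted in the length: with the longest transcript in place of the exon union, *Fmo1* made up 55.1% in WT females and 35.8% in WT males, and *Fmo5* 32.0% and 58.3%, so *Fmo1* then led in WT females.

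**Figure D3:**
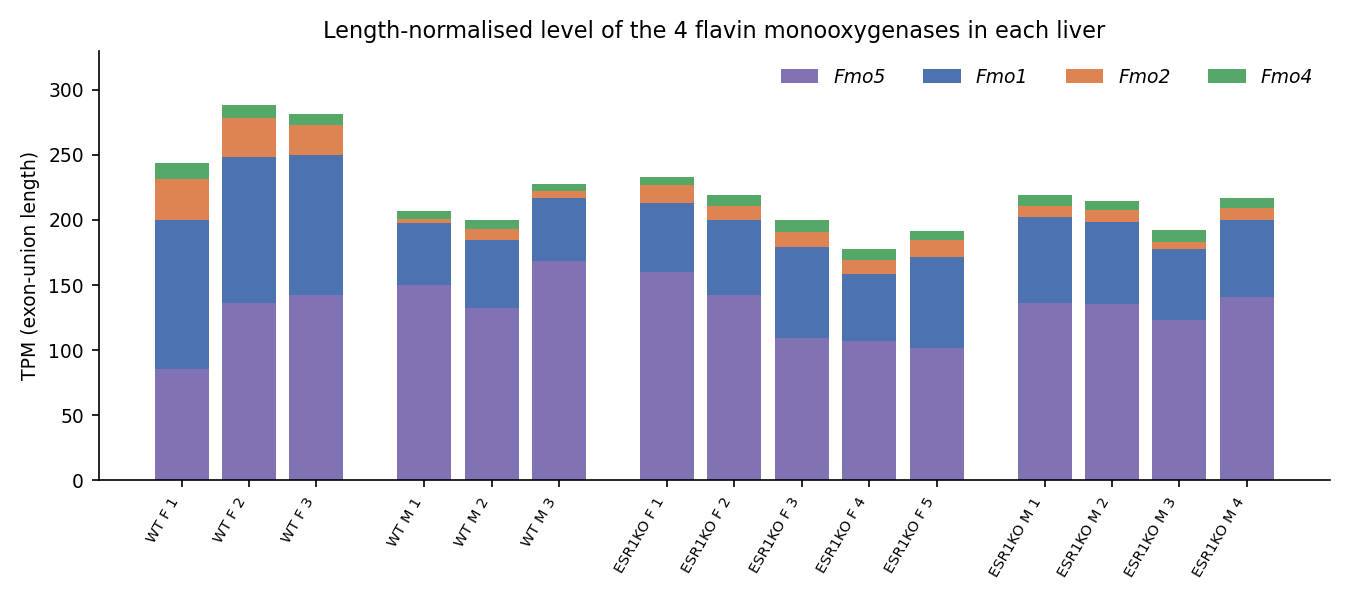
Stacked length-normalised levels (TPM over the exon union, axis from 0) of *Fmo5*, *Fmo1*, *Fmo2* and *Fmo4* in each liver, with F for female and M for male. The summed level was at least 244 TPM in WT females and at most 233 TPM in the other mice, a separation that is absent as CPM per kilobase, where ESR1KO female 1 was highest at 114.9.

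Over the 15 libraries, the genes whose log2 CPM followed each member most closely were listed by Pearson's r, as a description that reflects differences between the groups. For *Fmo1* they were *Atp6v0d2*, a proton pump subunit gene (r = 0.94), *Hao2*, a peroxisomal hydroxy acid oxidase gene (0.93), and *Ubqln4* (0.92). Among the top 3 for *Fmo2* were *Rdh16f2* (0.94) and *Gm15375* (0.92). For *Fmo4* they were *Acss3* (0.86), *Lrtm1* (0.85) and *Acot2* (0.84), and for *Fmo5* *Vps13b* (0.86), *Ghr*, the growth hormone receptor gene (0.85), and *Zfyve9* (0.85). *Fmo1* and *Fmo2* had r = 0.87 with each other over all libraries and 0.38 after the group means were removed, and *Fmo4* had r = 0.60 with *Fmo1* but -0.17 within groups. Within groups *Fmo5* had r = 0.08 with *Fmo1* and 0.03 with *Fmo2*.

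Genes that supply FMO cofactors or act beside the enzymes were taken from lists chosen by function. Of 4 genes for FAD supply, *Rfk*, the riboflavin kinase that makes FMN, passed between WT females and males, at 52.9 ± 3.06 and 32.1 ± 4.41 CPM (SD, n = 3 each), a log2 difference of 0.72 (adjusted p in edgeR, 0.00672). The median log2 fold change of the list was -0.05, beside 0.01 over all genes, and 0 of its 4 genes passed in any of the other 5 comparisons. Of 5 genes for NADPH supply, 0 passed between WT sexes or in females between genotypes, with list medians of -0.15 and 0.15. *Me1*, cytosolic malic enzyme, was higher in ESR1KO than in WT males, at 462 ± 119 CPM (SD, n = 4) and 148 ± 3.74 (SD, n = 3), with a log2 difference of 1.65 (adjusted p in edgeR, 0.00904), a call lost without WT male 1 or 3 (highest adjusted p 0.0610). *Pgd*, the second NADPH-forming enzyme of the pentose phosphate pathway, was lower in ESR1KO females than in ESR1KO males (log2 fold change -0.89, edgeR adjusted p = 0.0230), and this call was lost without ESR1KO female 1 or 2 or ESR1KO male 1, 3 or 4 (highest adjusted p 0.0838) or without both ESR1KO females 1 and 4 (0.112). It was also lost with a replicate block (0.0677) and with only the compared groups in the fit (0.0865).

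Of 6 genes for microsomal electron transfer and N-oxide reduction, 1 passed in females between genotypes and 0 in the other 5 comparisons, and the median in that comparison was 0.00. This was *Por*, the reductase that serves cytochromes P450, whose mean was 539 ± 46.2 CPM (SD, n = 3) in WT and 277 ± 84.2 CPM (SD, n = 5) in ESR1KO females. The log2 difference was -0.96 (edgeR adjusted p = 0.0301), and the call was lost without any 1 of the WT females or without ESR1KO female 1 or 2 (highest adjusted p 0.123), without both ESR1KO females 1 and 4 (0.112) or with only the compared groups in the fit (0.0560). Of 6 genes for taurine synthesis and transport, 5 could be tested, and *Csad*, the decarboxylase that makes hypotaurine, the substrate of FMO1, ran opposite to *Fmo1* in females. It was at 125 ± 60.8 CPM in WT females and 423 ± 119 in WT males (SD, n = 3 each), with a log2 difference of -1.75 (adjusted p in edgeR, 0.0102). Its level in ESR1KO females was 371 ± 153 CPM (SD, n = 5), a log2 difference of 1.57 from WT females (adjusted p in edgeR, 0.0154), which was lost without WT female 2 or 3 (highest adjusted p 0.0823) or with only the compared groups in the fit (0.0638). The remaining 4 tested genes of that list did not pass in any comparison, and the list's median was 0.09 between WT sexes and -0.02 between genotypes in females.

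Of the 6 regulators reported here, from a list that held 1 more, *Esr1* passed in 4 of the 6 comparisons and the other 5 genes in none. Apart from that between WT sexes, the comparisons *Esr1* passed set ESR1KO against WT mice, where the design itself alters this gene. Between WT sexes *Esr1* was at 81.9 ± 6.79 CPM in females and 36.1 ± 14.1 in males (SD, n = 3 each), a log2 difference of 1.18 (adjusted p in edgeR, 0.0194), which was lost without WT female 2 or 3 or WT male 1 or 2 (highest adjusted p 0.115). The median log2 fold change of these 6 genes was 0.04 between WT sexes and -0.23 between genotypes in females. Markers of other liver cells were read beside the members, since *Fmo2* is best known outside hepatocytes. The summed CPM of 6 stellate cell markers was 412 to 509.9 in WT females, 368 to 497 in WT males, 434 to 459 in ESR1KO females and 403 to 503 in ESR1KO males, so all groups overlapped. The sums of 6 Kupffer cell markers overlapped as well, at 372 to 465, 355 to 385, 342 to 466 and 292 to 374 CPM in the same order. For 6 endothelial markers, WT females at 490.2 to 501 CPM lay above WT males at 329 to 466, while ESR1KO females at 408 to 496 and ESR1KO males at 408 to 511 overlapped both. No marker of these 3 lists passed in any of the 6 comparisons. For 5 cholangiocyte markers, WT females at 32.4 to 32.9 CPM were below WT males at 34.0 to 55.6, ESR1KO females at 43.7 to 51.4 and ESR1KO males at 41.3 to 59.3. Of these, 1 was higher and 1 lower between WT sexes, 1 was higher in ESR1KO than in WT females and 2 in ESR1KO than in WT males. In the interaction 1 was lower, 1 was higher in ESR1KO females than in WT males, and 0 passed between ESR1KO sexes. The 6 lymphocyte markers summed to 1.78 to 5.202 CPM over the WT mice and 2.64 to 4.32 over the ESR1KO mice, and 1 was higher in WT females than in WT males. Of the 6 hepatocyte markers, 1 was higher in WT females than in WT males, while their median log2 fold change was -0.15. No marker was at 0 in any group. The part of cell composition in the differences of *Fmo1*, *Fmo2* and *Fmo4* was not tested.

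**Figure D4:**
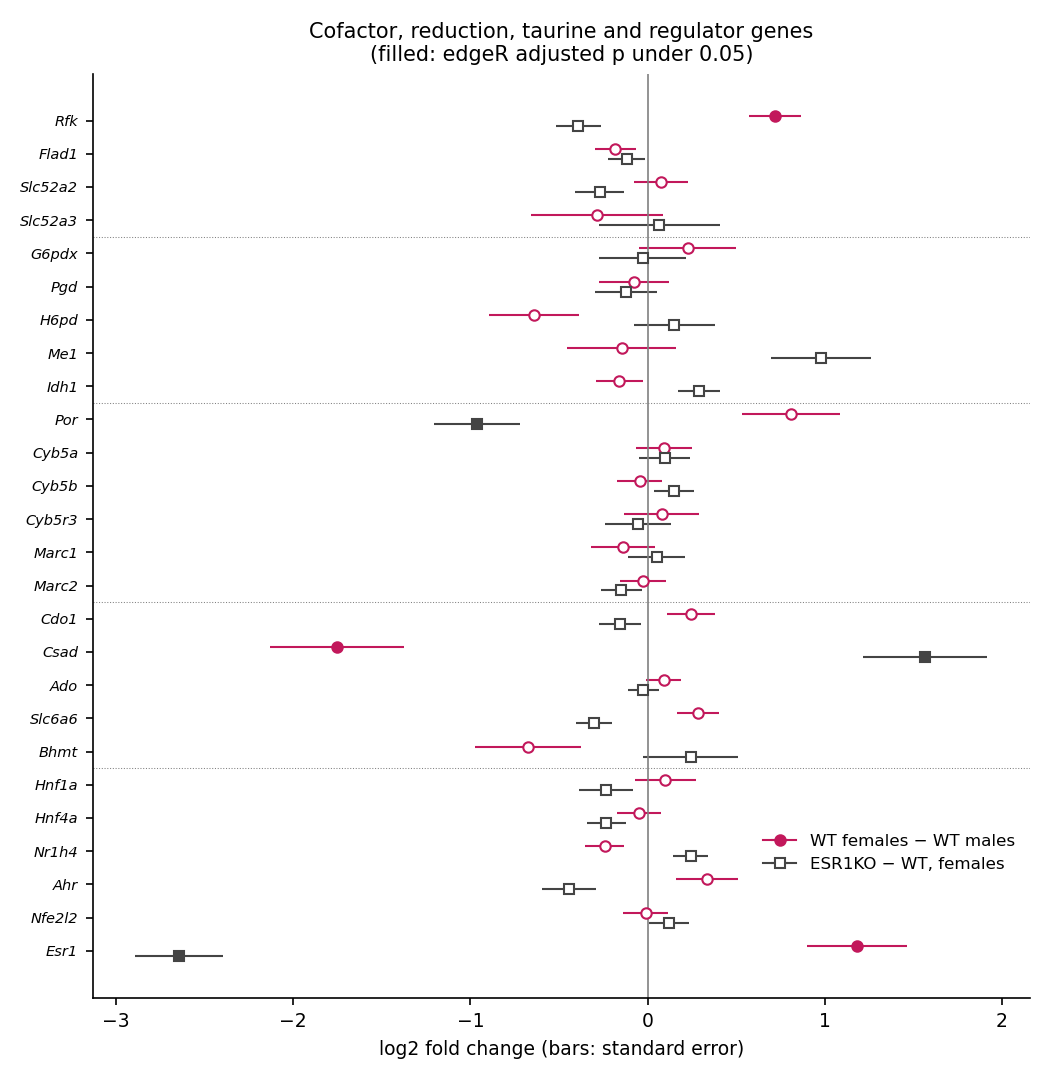
Log2 fold changes (horizontal axis, bars show the standard error) of the tested list genes between WT females and males (circles) and between ESR1KO and WT females (squares); dotted lines part FAD supply, NADPH supply, microsomal and N-oxide reduction, taurine and regulator genes, and filled points passed at an adjusted p under 0.05. *Csad* was at -1.75 and 1.57, on opposite sides of 0.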

How the data were processed

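Liver RNA of 15 mice was depleted of ribosomal RNA and sequenced as paired ends. The authors trimmed the reads (Trimmomatic 0.36 in the submitters' processing notes), used STAR for alignment to GRCm38 and HTSeq to count reads over genes; the deposited values are these raw counts, without normalization. Annotation release, strand setting and treatment of multiply mapped reads are not given in the sources used here. A top-up run was made for some samples, which are not named. Groups came from the labels. All value columns were used.

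The analysis used edgeR 4.0.16 (R 4.3.3): filterByExpr kept 17655 of 55573 genes, TMM factors lay between 0.9568 and 1.035, and 1 quasi-likelihood model with a mean per group was fitted to all 15 libraries and tested on simulated data. DESeq2 1.42.0, other scalings, filters, call rules and sample sets, a replicate block and leaving out each mouse were alternatives; leaving out ESR1KO females 1 and 4 was added after seeing the data. CPM use TMM, log2 CPM a prior count of 2, and TPM the lengths of GENCODE M21, where 55480 identifiers matched. Limits from 0 counts (3 counts) cover counting error only. Between libraries of a group, the chi-square per gene was at least 24.7, so none was a repeat of another. Mice are separate animals. The members, lists and motifs were chosen with earlier results of these data known. Named were the members, *Fmo6*, *Fmo9*, list genes that passed in a comparison or carried a zero, and the 3 genes most like each member; of these, 1 like *Fmo2* and 1 of the listed regulators are not reported here. The list gene *Gadl1* had too few counts to be tested.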

Additional observations from a re-analysis of the deposited data

Results flagged for a closer look

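*Fmo1* in ESR1KO female 4, at 129 CPM, stood far from the other 4 ESR1KO females, the nearest of which was at 166 CPM. The gap was 0.726 of the range of the group. This mouse also had the lowest mitochondrial share of counts, 1.97%, and the part of that in the value was not tested. Of 10 groups of values examined in this way (the CPM of each member and their summed TPM in ESR1KO females and males), this was the only one set apart, and chance sets apart about 1 in 20.

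The effect of genotype on *Fmo1* differed between the sexes, by a log2 value of -1.06, females less males (edgeR adjusted p = 0.000587). All 5 ESR1KO females were below all WT females and all 4 ESR1KO males above all WT males. The change in males did not pass by itself (edgeR adjusted p = 0.201). For *Fmo2* the effect in females less that in males was -1.499 (edgeR adjusted p = 0.0157).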

How the results depend on the processing

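The log2 fold changes of the 4 members in 6 comparisons were recomputed 596 times in all under the alternatives; 559 kept their direction and their side of the threshold, and 13 lost and 9 gained a call. The number of members passed stayed within 1.5 times in 136 of 149 recomputations. With a log2 fold change of at least 1.5 required, 1 member (*Fmo2*) passed between WT sexes and 0 in the other 5 comparisons. At an unadjusted p, 1 passed between ESR1KO sexes, 2 between male genotypes, 3 in the interaction and 3 between ESR1KO females and WT males, beside 17.5%, 11.9%, 14.3% and 17.4% of all genes. With no filter, 1 passed between ESR1KO sexes, where the number of all genes rose from 48 to 313 (440 with DESeq2, 26 with only the groups compared, 28 without ESR1KO females 1 and 4). With 1 mouse left out, members passed ranged from 2 to 3 between WT sexes, from 1 to 2 in the interaction and from 0 to 2 between ESR1KO females and WT males. Without ESR1KO females 1 and 4, an alternative chosen after seeing the data, 2 passed in the last comparison.

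The 15 changes of direction were in differences near 0, which passed under no setting. Between ESR1KO sexes, *Fmo1* was at 0.0489 with library totals only, 0.00964 with no filter and 0.0838 without ESR1KO females 1 and 4, and from -0.0426 to 0.0717 with 1 mouse left out. *Fmo4* was at 0.0254 with library totals only, 0.0251 with the replicate block and 0.00691 without those females, and from -0.101 to 0.0304 with 1 mouse left out. With 1 mouse left out, *Fmo5* ran from -0.243 to 0.0111 between ESR1KO sexes and from -0.00599 to 0.350 between female genotypes. The cause was not tested.

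Replicate numbers did not pair the mice: of 19 same-numbered pairs, 1 had a correlation of deviations over 0.1 (range -0.19 to 0.14). With the number as a replicate block, 3 members passed between WT sexes, 2 between female genotypes, 0 between male genotypes, 2 in the interaction, 0 between ESR1KO sexes and 1 between ESR1KO females and WT males, as without it. Of the list genes named, *Pgd* lost its call under the block (adjusted p = 0.0677). With DESeq2, the counts of all genes were 1522, 478, 589 and 860 for female genotypes, male genotypes, the interaction and ESR1KO females against WT males, beside 1008, 250, 343 and 461. With only the groups compared they were 457, 422 and 242 for the first, second and last of these. Without ESR1KO females 1 and 4 they were 585 for female genotypes and 282 for the last, and with no filter 411 for male genotypes. Counts under the block were 1383 against 1008 between female genotypes and 165 against 250 between male genotypes. Depth limits *Fmo4* most, with 347 to 1023 counts per library.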
